A study of Mus musculus with 20 samples.

Results

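Kruppel-like factors (KLFs) are zinc finger transcription factors, and 10 of their genes were followed here in mouse intestinal tissue: Klf2, Klf3, Klf4, Klf5, Klf6, Klf7, Klf9, Klf10, Klf13 and Klf16. The members were chosen by name, as every probe that the array annotation assigns to one of these symbols, and they came to 19 of 56605 probes and 10 of 25043 named genes. RNA was taken from the tissue of 20 C57BL6/j mice and hybridised to 1-colour microarrays, 1 array per mouse, in 4 groups. The 6 Cre control mice were VillinCreER/0 and the 6 BRAFV600E mice were VillinCreER/0/BrafV600E-LSL/+. All 12 were 8 to 12 weeks old, received 3 daily doses of 2 mg tamoxifen and were sampled 3 days after the last dose. The 4 MEKi and 4 Vehicle mice received 2 tamoxifen injections and then 3 injections of the MEK inhibitor PD184352 or of its carrier. By the study's own account both of these groups carried the mutant allele, which their labels do not state, so the Vehicle arrays are no wild-type control. The Villin promoter drives Cre in the gut epithelium, whereas the RNA came from tissue that also holds stroma and immune cells. The first pair of groups asks how KLF transcripts differ within days of mutant BRAF expression, and the second asks whether they differ when MEK, the kinase below BRAF, is blocked.

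KLF proteins share a block of zinc fingers that binds CACCC and related GC-rich boxes, and their remaining parts recruit either coactivators or corepressors. Klf4 is best known in the gut from differentiated villus and goblet cells, and Klf5 from the dividing cells of the crypt. Klf2 is a factor of endothelium and resting T cells, induced through the kinase ERK5. Klf10, first described as a gene induced early by TGF-beta, and its relatives Klf9, Klf13 and Klf16 bind the corepressor Sin3a, and Klf3 binds the corepressor CtBP.

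Between 36032 and 45518 spots per array were well above background. All 7 epithelial markers examined (Epcam, Cdh1, Krt8, Krt18, Krt19, Vil1 and Cdx2) were detected in both experiments. Slide 1 carried all 6 Cre control mice together with BRAFV600E replicates 1 and 2, and slide 2 carried BRAFV600E replicates 3 to 6. Since slide 2 held no Cre control array, slide and genotype are partly mixed in the first comparison. MEKi arrays filled row 1 and Vehicle arrays row 2 of slide 3, so that row and treatment cannot be told apart. Signal from Y-linked genes was high in 3 of 6 Cre control, 4 of 6 BRAFV600E, 4 of 4 MEKi and 2 of 4 Vehicle arrays. Spike-in controls lay outside their accepted range on Cre control replicates 2, 3 and 5, with slopes of 0.76 to 0.84. They also did so on the 4 arrays of slide 2, where the recorded slope was 0. All levels are given as log2 of the processed intensity minus the 75th percentile of the array, and a level of one probe says nothing against that of another.

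The shared zinc finger block is visible in the probes themselves. The 60-base probes that stand for Klf5 (chr14:99702656-99712388, plus strand, across an exon junction) and Klf13 (chr7:71082854-71082913, minus strand; both mm9) were the only ones of the 19 that read through as zinc finger coding sequence. They are shown because they hold the stretch that the family shares. Capitals mark the 29 identical bases among the 40 that align without gaps (72.5%).
Klf5: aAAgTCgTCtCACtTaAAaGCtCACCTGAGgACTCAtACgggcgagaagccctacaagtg
Klf13: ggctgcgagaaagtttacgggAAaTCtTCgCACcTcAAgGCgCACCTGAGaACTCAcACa

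KLF promoters can themselves hold the boxes that KLF proteins bind, and 3 are printed, chosen after the values were seen: those of Klf3 and Klf7, which each had a probe whose groups did not overlap in either experiment, and that of Klf4, the best known member in the gut. A table of RefSeq promoters (GRCm38.p6) held 7 of the 10 members: Klf2, Klf3, Klf4, Klf6, Klf7, Klf9 and Klf13. The 250 bases before the start are shown 5′ to 3′ in the direction of transcription, with matches to CACCC and GGGCGG on either strand in capitals. Matches of the 2 motifs can overlap.
Klf3 (chr5:64803271-64803520, plus strand): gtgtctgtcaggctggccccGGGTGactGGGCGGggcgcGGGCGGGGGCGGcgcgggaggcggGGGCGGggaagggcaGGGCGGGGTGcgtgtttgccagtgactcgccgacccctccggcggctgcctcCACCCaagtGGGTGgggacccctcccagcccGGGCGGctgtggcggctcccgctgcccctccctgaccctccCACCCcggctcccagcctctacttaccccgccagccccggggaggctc
Klf4 (chr4:55532476-55532725, minus strand): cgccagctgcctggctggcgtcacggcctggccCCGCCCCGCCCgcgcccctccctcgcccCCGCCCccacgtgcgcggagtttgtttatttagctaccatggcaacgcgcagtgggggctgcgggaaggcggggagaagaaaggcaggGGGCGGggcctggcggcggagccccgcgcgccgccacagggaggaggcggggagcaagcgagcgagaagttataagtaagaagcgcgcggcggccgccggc
Klf7 (chr1:64121390-64121639, minus strand): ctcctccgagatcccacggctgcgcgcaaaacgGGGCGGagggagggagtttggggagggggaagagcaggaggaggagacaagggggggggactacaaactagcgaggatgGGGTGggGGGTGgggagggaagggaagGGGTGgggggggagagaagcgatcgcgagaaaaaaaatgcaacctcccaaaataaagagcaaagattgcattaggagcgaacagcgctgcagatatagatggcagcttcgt

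Klf3 held 5 CACCC and 6 GGGCGG matches, Klf4 held 0 and 4, and Klf7 held 3 and 1. GGGCGG was found in 6 of the 7 member promoters and in 32.7% of all 32851 promoters of this length, and CACCC in 5 of 7 and in 52.0%. The member promoters were GC-rich, from 59.2% to 78.4%, against a median of 52.4% over all promoters. The ETS core CCGGAAG, the AP-1 site TGACTCA, the CRE TGACGTCA and the CArG box were in 0 of the 7, and in 6.91%, 4.46%, 1.55% and 1.47% of all promoters.

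Among the 10 members, Klf10 was the gene that passed the test between BRAFV600E and Cre control tissue. It was 2.26-fold higher in BRAFV600E, while the other 9 did not pass, and 4 members (Klf5, Klf7, Klf10 and Klf13) had an unadjusted limma p under 0.05, against 30.1% of all genes. Over all genes, 12.4% passed in this comparison (6.18% higher and 6.26% lower), so that 1 of 10 members is a share near the background. The fold changes of 8 members were above 0, with a median of 0.33 on the log2 scale against -0.02 over all 19036 genes tested. No member had groups that did not overlap, against 7.36% of all genes.

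**Figure D1:**
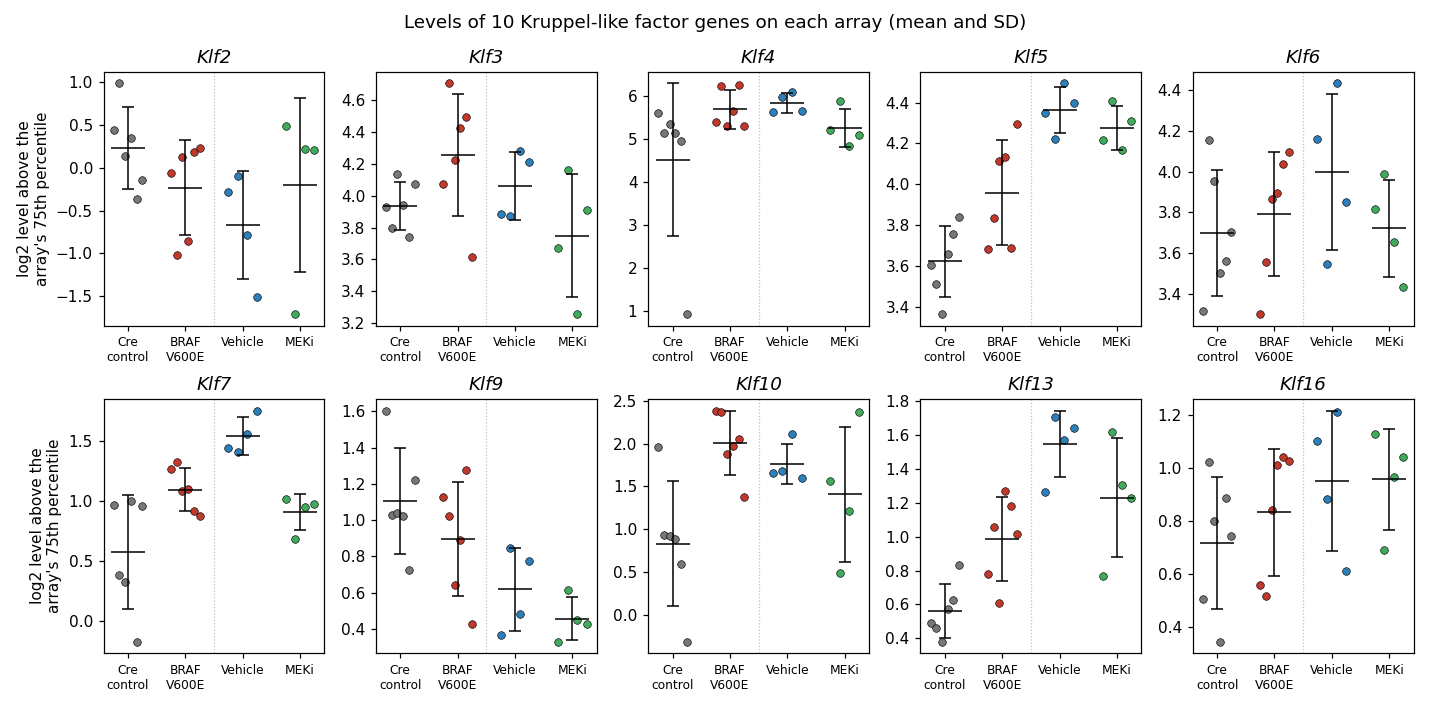
Level of each of the 10 genes on every array, as log2 of the processed intensity minus the 75th percentile of the array, in the 4 groups (points, 1 mouse each; bars, mean and SD; each gene has its own vertical axis). Klf10 on 5 of 6 Cre control arrays lay below every BRAFV600E array, Klf7 separated Vehicle from MEKi, and 1 Cre control array stood far below the rest for Klf4.

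Klf10 encodes the repressor TIEG1. Its main probe (chr15:38224255-38224314, mm9, minus strand) ran from -0.31 through a median of 0.90 to 1.97 in Cre control and from 1.38 through 2.01 to 2.39 in BRAFV600E. The groups overlapped through Cre control replicate 1 at 1.97, and the next highest Cre control array was at 0.93. The means were 0.83 ± 0.73 and 2.01 ± 0.37 (SD, n = 6 each), or 1.18 as log2 fold change (SE 0.31, 95% interval 0.50 to 1.85, adjusted p = 0.0286 by limma). A second Klf10 probe, against another transcript variant, lay near background and was well above it on 2 of 6 Cre control and 4 of 6 BRAFV600E arrays. Its log2 fold change was 1.01 (SE 0.38, adjusted p = 0.111 by limma). The call depended on the set of arrays: without Cre control replicate 2, 3 or 5, or BRAFV600E replicate 1, 2 or 4, the adjusted p of Klf10 was between 0.0503 and 0.0600, while its fold change stayed above 2. On slide 1 alone, which holds all Cre control arrays and 2 BRAFV600E arrays at 2.37 and 2.39, the log2 fold change was 1.55 (adjusted p = 0.123 by limma).

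Under MEKi the Klf10 level did not separate from Vehicle. The MEKi arrays read 1.57, 0.48, 1.21 and 2.38, and the Vehicle arrays 1.66, 1.69, 2.11 and 1.60. The MEKi arrays thus lay on both sides of the Vehicle range. The difference was -0.36 on the log2 scale (95% interval -1.19 to 0.48, adjusted p = 0.702 by limma). It was -0.05 without MEKi replicate 2, -0.68 without MEKi replicate 4 and -0.24 without Vehicle replicate 3.

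Klf13 and Klf16 belong to the same Sin3a-binding branch, and Klf13 is known from T cells, where it drives the chemokine gene Ccl5. Klf13 ran from 0.38 through a median of 0.53 to 0.83 in Cre control and from 0.61 through 1.04 to 1.27 in BRAFV600E. The 2 highest Cre control values lay above the lowest BRAFV600E value. This was a log2 change of 0.43 (95% interval 0.13 to 0.73, adjusted p = 0.0616 by limma), which did not pass, and it passed when only genes detected on every array were tested (adjusted p = 0.0499). In the other comparison the MEKi arrays read 0.77, 1.62, 1.31 and 1.23 and the Vehicle arrays 1.26, 1.71, 1.57 and 1.65, or -0.32 as log2 fold change (adjusted p = 0.491 by limma).

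Klf13 had 2 further probes. One lies on the plus strand (chr7:71032482-71032541, mm9), opposite to the rest, and was designed to a cDNA annotated as holding a retained intron. Its log2 fold change in BRAFV600E was 1.06 (adjusted p = 0.127 by limma). The other spans 32932 bases across a junction, averaged -3.81 in Cre control and -4.20 in BRAFV600E, and its difference was -0.39 (adjusted p = 0.432 by limma).

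Klf16, one of the factors whose human regulons the study examined beside the cholesterol genes, did not pass in either comparison. It ran from 0.35 through 0.77 to 1.02 in Cre control and from 0.52 through 0.93 to 1.04 in BRAFV600E. BRAFV600E minus Cre control was 0.12 on the log2 scale, with a 95% interval of -0.22 to 0.45 (adjusted p = 0.659 by limma). MEKi arrays read 1.13, 0.69, 0.97 and 1.04 and Vehicle arrays 1.10, 0.88, 1.21 and 0.61, and the difference was 0.01 (95% interval -0.38 to 0.39).

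Klf9 is a hormone-responsive repressor, induced by glucocorticoids and thyroid hormone. It ran from 0.72 through 1.04 to 1.60 in Cre control and from 0.43 through 0.96 to 1.27 in BRAFV600E, or -0.21 as log2 fold change (adjusted p = 0.466 by limma). A second probe gave -0.01. Without scaling between arrays the main probe gave 0.60, below the median of 0.79 over all genes in that setting. The MEKi arrays read 0.33, 0.62, 0.45 and 0.43 and the Vehicle arrays 0.37, 0.85, 0.48 and 0.78, or -0.16 as log2 fold change (adjusted p = 0.653 by limma). Of 8 glucocorticoid-responsive genes, among them Fkbp5, Tsc22d3 and Per1, 0 passed in either comparison.

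**Figure D2:**
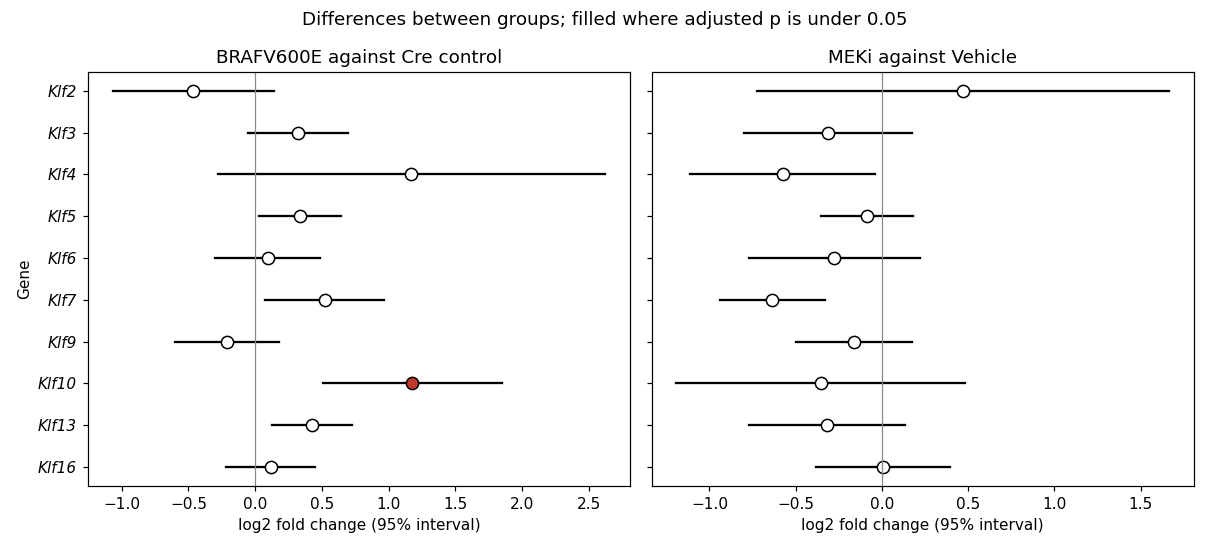
log2 fold change of each gene with its 95% interval from limma, BRAFV600E against Cre control on the left and MEKi against Vehicle on the right (filled circle, adjusted p under 0.05; open circle, not). Only Klf10 on the left is filled, and the interval of Klf4 on the left is the widest, from -0.28 to 2.62.

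For Klf4, 1 array decided the size of the difference. In Cre control the arrays ran from 0.92 through a median of 5.14 to 5.61, and in BRAFV600E from 5.30 through 5.53 to 6.25. Cre control replicate 6 stood at 0.92 and the other 5 between 4.96 and 5.61. With all arrays the log2 fold change was 1.17 (SE 0.67, 95% interval -0.28 to 2.62, adjusted p = 0.261 by limma). Without Cre control replicate 6 it was 0.45 (adjusted p = 0.192 by limma).

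The low Klf4 reading on that array came with low readings around its spot. Within 5 rows and columns of the Klf4 spot, 38 of 113 neighbouring probes on Cre control replicate 6 lay at least 2 log2 units below the median of the other Cre control arrays, and their median difference was -0.90. On the other 5 Cre control arrays, 0 or 1 of the 113 neighbours did so. The pixels of the Klf4 spot varied by 22.8% of their mean on replicate 6 and by 4.26% to 8.40% on the others, and the software marked the spot as an outlier on 0 of the 6 arrays. Over all 56604 probes of replicate 6, 2.79% lay that far below, against 12.1% of the 3491 spots within 30 rows and columns of Klf4. Among the other 379 pairs of a member probe and an array, the median difference of the neighbours ran from -0.74 to 0.51.

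**Figure D3:**
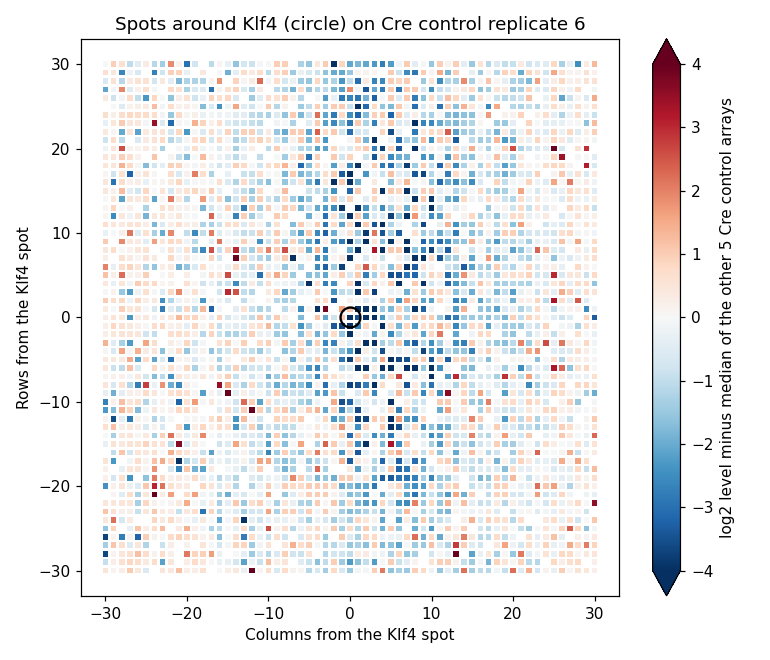
Spots around the Klf4 spot (circle at 0, 0) on Cre control replicate 6, by rows and columns from it. Colour gives the log2 level of each spot minus its median on the other 5 Cre control arrays, blue for lower, with the scale ending at -4 and 4. Dark blue spots gather in a band that runs through the Klf4 position, where 12.1% of the 3491 spots shown lie at least 2 log2 units below.

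In the MEK inhibitor experiment, where no array stood apart for this gene, Klf4 read 5.22, 5.87, 4.84 and 5.10 in MEKi and 5.63, 5.97, 6.10 and 5.64 in Vehicle. Of the MEKi arrays, 3 lay below all Vehicle arrays and replicate 2 lay inside their range. On the log2 scale it differed by -0.58 (SE 0.23, 95% interval -1.11 to -0.04). The unadjusted limma p was 0.0383 and the adjusted p 0.272, so that it did not pass.

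The 5 genes whose profile over the 20 arrays was nearest to Klf4, among 18572 compared, were Med13l, Insig2, Itgav, Ttc39a and Gm20199, with a mean absolute difference from 0.27 to 0.30 on the log2 scale. All 5 of their spots lay within 19 rows and 10 columns of the Klf4 spot, and on Cre control replicate 6 they stood 2.72 to 4.39 log2 units below the median of the other Cre control arrays. Over the 19 arrays without it, a choice made after the data were seen, the nearest genes were Card19, Xiap, Ubxn2a, Synj2bp and Slc22a23 (0.18 to 0.20). Those spots lay 40 to 140 rows away.

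Klf5, which drives crypt cell division, did not pass in either comparison. It ran from 3.37 through 3.63 to 3.84 in Cre control and from 3.69 through 3.97 to 4.30 in BRAFV600E. The 3 lowest BRAFV600E arrays lay inside the Cre control range and the other 3 above it. The log2 fold change was 0.34 (95% interval 0.03 to 0.65, adjusted p = 0.135 by limma). MEKi arrays read 4.22, 4.41, 4.17 and 4.31 and Vehicle arrays 4.35, 4.22, 4.49 and 4.40, with a difference of -0.09 (95% interval -0.36 to 0.18). A second Klf5 probe, inside the genomic span of the junction probe, gave 0.42 (adjusted p = 0.320 by limma) and 0.18 (adjusted p = 0.799). The 5 nearest genes by profile were Med9, Ring1, Nelfe, Bloc1s6 and Trip10, with a mean absolute difference from 0.08 to 0.10 against a mean absolute deviation of 0.16 for Klf5 itself.

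Klf7, a factor studied mostly in neurons and fat cells, had the smallest p of the 10 in the MEK inhibitor experiment, without passing the test. Its main probe (chr1:64082265-64082324, mm9, minus strand) read 1.01, 0.69, 0.95 and 0.97 in MEKi and 1.44, 1.41, 1.56 and 1.75 in Vehicle. Every MEKi array lay below every Vehicle array, which 12.2% of all genes showed in 1 direction or the other. The means were 0.90 ± 0.15 and 1.54 ± 0.15 (SD, n = 4 each), or -0.64 as log2 fold change (SE 0.13, 95% interval -0.94 to -0.33, adjusted p = 0.0567 by limma). Klf7 was the member that passed when only genes detected on every array were tested (adjusted p = 0.0406), with normexp background correction (0.0470) and with array weights (0.0245). Over all alternatives run its adjusted p lay between 0.0245 and 0.605, the latter without scaling between arrays, and its log2 fold change between -0.68 and -0.56.

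The other Klf7 probes leaned the same way. One (chr1:64080138-64080197, mm9, minus strand) read -0.71, -1.34, -0.57 and -0.69 in MEKi and -0.46, -0.29, -0.33 and -0.13 in Vehicle, again without overlap, and its log2 fold change was -0.53 (adjusted p = 0.281 by limma). The third (chr1:64167512-64167571, mm9, minus strand), near background, gave -0.66 (adjusted p = 0.327 by limma) with overlapping groups.

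In BRAFV600E against Cre control, Klf7's main probe ran from -0.17 through 0.67 to 1.00 and from 0.88 through 1.09 to 1.33. Of the 6 Cre control arrays, 3 lay inside the BRAFV600E range. The difference was 0.52 on the log2 scale (95% interval 0.07 to 0.97, adjusted p = 0.111 by limma). The probe at chr1:64080138-64080197 passed the test over all probes: from -0.79 to -0.20 in Cre control and from -0.19 to 0.25 in BRAFV600E, without overlap, or 0.55 as log2 fold change (SE 0.13, adjusted p = 0.0256 by limma). Its gap between the groups was narrow. The third probe gave 1.26 (SE 0.45, adjusted p = 0.0929 by limma), and was well above background on 2 of 6 Cre control and 5 of 6 BRAFV600E arrays.

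Klf3, which represses its targets together with CtBP, showed a like pattern in 1 of its 3 probes. The main probe ran from 3.74 through 3.94 to 4.14 in Cre control and from 3.62 through 4.32 to 4.71 in BRAFV600E. Here BRAFV600E replicate 6 was the lowest array of both groups. This was a log2 change of 0.32 (adjusted p = 0.235 by limma). The probe at chr5:65223991-65224050 (mm9, plus strand) ran from 2.12 to 2.71 in Cre control and from 2.79 to 3.38 in BRAFV600E, without overlap, and passed with a log2 fold change of 0.51 (SE 0.14, adjusted p = 0.0449 by limma). In MEKi it read 3.00, 3.22, 2.74 and 3.21 and in Vehicle 3.36, 3.44, 3.38 and 3.64, again without overlap, but did not pass (log2 fold change -0.41, adjusted p = 0.298 by limma). The main probe read 3.67, 4.16, 3.26 and 3.91 in MEKi and 3.88, 3.87, 4.28 and 4.21 in Vehicle, or -0.31 as log2 fold change (adjusted p = 0.536 by limma). The third Klf3 probe, across a junction, gave 0.38 and -0.38 (adjusted p = 0.374 and 0.574 by limma).

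Klf6, a factor induced by tissue injury, ran from 3.31 through 3.63 to 4.16 in Cre control and from 3.30 through 3.88 to 4.10 in BRAFV600E. The ranges were nearly the same and the log2 fold change was 0.09 (95% interval -0.30 to 0.49). With slide as a block its sign turned, to -0.27, and that of Klf16 to -0.18. MEKi arrays read 3.81, 3.99, 3.65 and 3.43 and Vehicle arrays 4.16, 3.54, 4.43 and 3.85, or -0.28 as log2 fold change (adjusted p = 0.600 by limma).

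Klf2 was the member with the opposite signs, below 0 in the first comparison and above 0 in the second. Without scaling between arrays its first difference was 0.34, below the median of 0.79 over all genes in that setting. With scaling, Klf2 ran from -0.37 through 0.24 to 0.98 in Cre control and from -1.01 through 0.03 to 0.23 in BRAFV600E, with BRAFV600E replicates 2 and 4 below all Cre control arrays. On the log2 scale it differed by -0.46 (SE 0.28, adjusted p = 0.284 by limma). MEKi arrays read 0.48, -1.71, 0.22 and 0.20 and Vehicle arrays -0.28, -0.10, -0.79 and -1.51. Of the MEKi arrays, 3 lay above every Vehicle array and replicate 2 lay below them all. The log2 fold change was 0.47 (SE 0.52, adjusted p = 0.729 by limma), and without MEKi replicate 2 it was 0.97 (adjusted p = 0.182 by limma).

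MEKi replicate 2 was also low in vascular and B cell markers. The summed level of 7 endothelial markers was 1.39 on that array and 2.80 to 3.04 on the other MEKi arrays, and that of 5 B cell markers was 3.98 against 6.35 to 6.99. The summed level of 8 T cell markers, 6.58 on that array, lay within the 6.55 to 7.02 of the other MEKi arrays. Around the Klf2 spot 0 of 69 neighbouring probes were 2 log2 units low there. The part of these cells in the Klf2 reading was not tested, and in whole tissue fewer cells of a type and less RNA per cell cannot be told apart. In BRAFV600E against Cre control, 0 of 7 endothelial markers passed, with summed levels of 3.00 to 3.45 against 2.89 to 3.68. Of 8 T cell markers 3 were lower (Cd3g, Cd8a and Lck) and 7 were below 0, with a median log2 fold change of -0.88. Their summed levels were 5.43 to 7.21 against 5.95 to 7.26. Of the 7 genes of the ERK5 module upstream of Klf2 and Klf4, 0 passed in either comparison, and Mapk7, the gene of ERK5 itself, did not (log2 fold change 0.28, adjusted p = 0.0964 by limma, and -0.03, adjusted p = 0.955).

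Between MEKi and Vehicle, 0 of the 10 members passed, where 1.98% of 19230 genes did (1.09% higher and 0.884% lower). At an unadjusted limma p under 0.05 there were 2 members, Klf4 and Klf7, or 20% where all genes gave 16.4%. With the alternatives run, the count was 0 or 1. The members' median log2 fold change was -0.29, against 0.04 over all genes, and 8 of 10 were below 0. The experiments share no arrays. The signs of the 2 experiments were opposite in 8 of 10 members, and in 70.2% of the 18573 genes tested in both. Of the 10 members, 7 were above 0 in BRAFV600E against Cre control and below 0 in MEKi against Vehicle, a sign pattern that 32.5% of those genes showed. Of these 7, Klf10 passed in BRAFV600E and 0 under MEKi.

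Counted by probe, 3 of 19 member probes passed in BRAFV600E against Cre control (Klf10, Klf7 and Klf3, 1 probe each), where 9.33% of 38493 probes did, and 9 of 19 had an unadjusted limma p under 0.05, against 27.4% of all probes. The count of 3 was 0 without Cre control replicate 2, 3 or 5 or BRAFV600E replicate 4, 1 without BRAFV600E replicate 2, 3 or 5, and 5 without Cre control replicate 4. The groups did not overlap for 2 of 19, against 6.41% of all probes. In MEKi against Vehicle 0 of 19 passed, against 0.928% of 39245 probes, with 5 at an unadjusted limma p under 0.05 (13.2% of all probes), and the groups did not overlap for 3 of 19, against 10% of all probes. Of the 19 probes 15 were above 0 in the first comparison and 16 below 0 in the second, and the probes of a gene are not independent of each other.

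**Figure D4:**
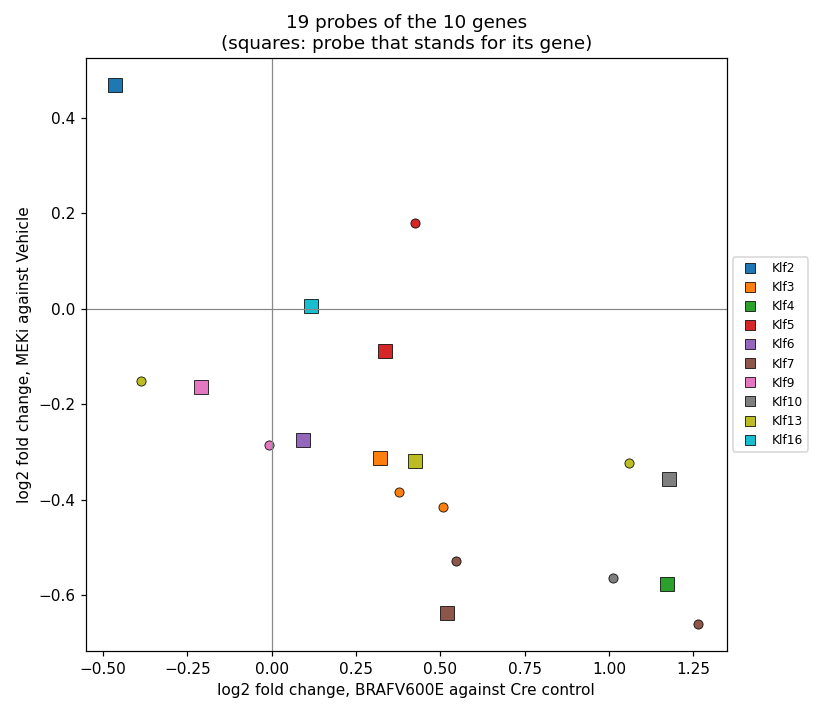
Each of the 19 probes by its log2 fold change in BRAFV600E against Cre control (horizontal) and in MEKi against Vehicle (vertical), coloured by gene, with a square for the probe that stands for its gene. All 3 probes of Klf3, of Klf7 and both of Klf10 lie at the lower right, above 0 in the first comparison and below 0 in the second, and Klf2 lies alone in the upper left.

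The relatives of these genes in the KLF and SP family gave 2 calls in BRAFV600E among 14 tested, a share near the 12.4% of all genes. Klf15, a metabolic factor of fasting and glucocorticoid response, fell by 2.33 on the log2 scale (SE 0.39, adjusted p = 0.00335 by limma). Its level ran from -1.10 to -0.04 in Cre control and from -3.93 to -1.67 in BRAFV600E, without overlap. The call on Klf15 was lost on the 5 arrays with spike-ins in range, where the log2 fold change was -2.79 (adjusted p = 0.0813 by limma). Klf11, the closest relative of Klf10, rose by 1.14 (SE 0.30, adjusted p = 0.0283 by limma), near background. Under normexp background correction the log2 fold change of Klf11 was 0.22 (adjusted p = 0.290). Without Cre control replicate 5 or BRAFV600E replicate 2 or 6, the log2 fold change of Klf11 was 1.02 to 1.05 and its adjusted p between 0.0598 and 0.0605. With slide as a block and on slide 1 alone, which give the same estimate, the log2 fold change was 1.44. The adjusted p was 0.0593 and 0.107 by limma. On arrays with spike-ins in range the log2 fold change of Klf11 was 1.43 (adjusted p = 0.367).

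In MEKi against Vehicle 0 of 13 family members tested passed by limma. Klf15 read -0.67, -0.35, -1.20 and -0.94 in MEKi and -1.20, -1.85, -1.13 and -1.51 in Vehicle, with overlap. The difference was 0.63 on the log2 scale (adjusted p = 0.220 by limma). The median log2 fold change of these relatives was 0.02 for BRAFV600E and -0.01 for MEKi.

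**Figure D5:**
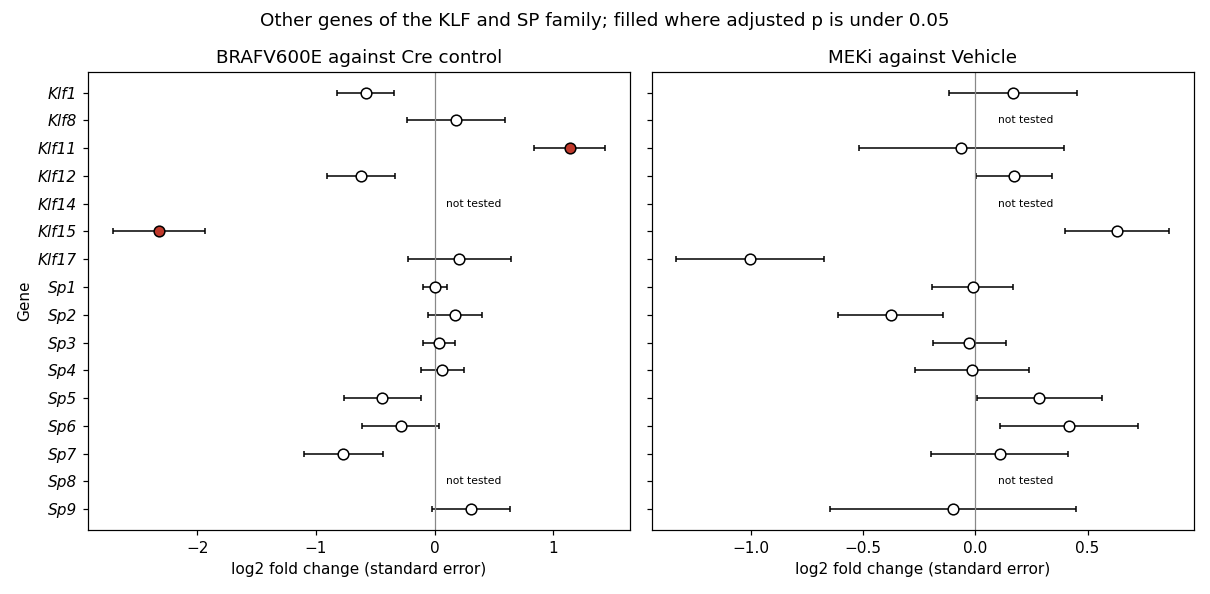
log2 fold change and standard error of the 16 KLF and SP genes outside the 10, BRAFV600E against Cre control on the left and MEKi against Vehicle on the right (filled, adjusted p under 0.05; genes not tested were not detected on enough arrays). Klf15 at -2.33 and Klf11 at 1.14 are filled on the left, and none is filled on the right.

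Genes that read out ERK activity gave more calls than the members. Of 15 such genes, 10 rose in BRAFV600E and 1 fell (Etv1, -0.73), and 6 fell under MEKi. The ETS factor Etv4 rose by 2.50 and fell by 2.95 on the log2 scale, and the feedback inhibitor Spry4 rose by 2.19 and fell by 2.34 (adjusted p by limma at most 0.00517). Of 11 immediate early genes tested, Egr1 rose in BRAFV600E (1.26, adjusted p = 0.0118 by limma), and 0 of 11 passed under MEKi.

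Lists of partners and linked genes are read against the 12.4% of all genes that passed in BRAFV600E and the 1.98% under MEKi. Of 13 KLF cofactors and regulators, the corepressor gene Ctbp2 rose in BRAFV600E (0.74, adjusted p = 0.0327 by limma), Sin3a was at -0.03, and 0 of 13 passed under MEKi. The 6 T cell and endothelial genes linked to Klf2 gave 0 calls in either comparison. Of 10 crypt proliferation genes linked to Klf5, Cdk1 rose by 1.15 and Myc by 0.94 in BRAFV600E (adjusted p = 0.0209 and 0.0488 by limma). Under MEKi 0 of these 10 passed. Of 9 differentiation genes linked to Klf4, 7 were below 0 in BRAFV600E. The enterocyte alkaline phosphatase Alpi rose by 1.84, while the goblet cell genes Muc2 (-0.82) and Tff3 (-0.80) and the chemokine gene Ccl25 (-0.70) fell. Under MEKi 0 of 9 passed. In the tissue, markers of its cell types moved as well. In BRAFV600E 3 of 7 goblet markers were lower and 1 higher, and 2 of 5 myeloid markers were lower. There 2 of 7 smooth muscle and 3 of 7 epithelial markers were higher. Among 8 enterocyte markers, Alpi was the 1 that passed, while 6 were below 0, with a median log2 fold change of -0.42. Between MEKi and Vehicle, 1 of 8 T cell markers was higher (Gzmb, 1.36) and 1 of 7 epithelial markers lower (Krt19, -0.72). The summed level of 5 myeloid markers, of which 0 passed, was 8.06 to 8.60 in MEKi and 7.20 to 7.95 in Vehicle, without overlap. That of 6 exocrine pancreas markers was 10.43 on Vehicle replicate 2 and 2.44 to 2.70 on the other Vehicle arrays, and without that array 0 of the 10 members passed, with Klf7 at -0.68 (adjusted p = 0.0690 by limma). The part of all these cells in the KLF levels was not tested.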

How the data were processed

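Per the file headers, the authors extracted each array with Agilent Feature Extraction 10.5.1.1, which gave a background-subtracted, spatially detrended intensity per spot on a linear scale, not scaled between arrays. The deposited series table held the same intensity (100% of spots within 0.5%) and served as an alternative without scaling. The deposited marks (other than an intensity) for spots well above background or outlying, a score of 0 or 1, were used as filters.

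Control and outlier spots were left out, log2 intensity was taken minus the 75th percentile of each array, and copies of a probe were averaged. Of 56605 probes, 34023 were named by RefSeq accession, 9993 by symbol and 318 by synonym (GRCm38.p6, names only). Each gene was represented by its probe of highest average level. A summed level is the log2 of the sum of a list's scaled intensities, so its brightest probes weigh most. Genes detected by that probe (well above background in 50% or more of a comparison's arrays) were tested with limma 3.58.1 (lmFit, eBayes, R 4.3.3), two-sided, without covariates, on the arrays of each comparison, with Benjamini-Hochberg adjustment over all genes tested and a call under 0.05. Probes were tested alike over all non-control probes. The scripts were tested on simulated data.

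The treatment text in the labels, a statin given to females, was the same for all 20 arrays and was not used. Nothing says whether litters or cages were shared, so p-values measure the spread between these mice. In BRAFV600E against Cre control that spread, and the difference itself, also hold any effect of slide. The number of arrays limits the precision. Whether a probe lies in a coding exon or a UTR was not analysed here, and probe coordinates are those of the files (mm9). The members and lists were chosen with earlier results of these data known. The text names all 10 members with every probe, the called genes of each list (at most 6 a list), and, for Klf4 and Klf5, the 5 nearest profiles, each array centred on the mean of its experiment.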

Additional observations from a re-analysis of the deposited data

Results flagged for a closer look

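Of 40 groups examined (10 genes in 4 groups), 3 held an array farther from the rest than Dixon's 95% limit allows, and chance gives about 1 in 20. Klf4 in Cre control replicate 6 was at 0.92, with the nearest other array at 4.96 and low readings around its spot, as described above. Klf2 in MEKi replicate 2 was at -1.71, with the nearest at 0.20, on an array that was also low in endothelial and B cell markers. The summed level of the T cell markers of that array lay within the range of the other MEKi arrays. Klf10 in Vehicle replicate 3 was at 2.11, with the nearest at 1.69, a gap of 0.835 of the range of that group. The causes were not tested.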

How the results depend on the processing

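No paired analysis was possible because the replicate numbers only name the arrays. The count of members called in BRAFV600E against Cre control was 1, and 8 without scaling between arrays (where the median log2 fold change of all genes was 0.79), 3 with array weights, 2 with detection on every array or a Y-linked covariate, 0 on slide 1 alone or on arrays with spike-ins in range, and 0 to 2 with 1 array left out; quantile normalization, normexp, no filter, the mean of all probes, every probe tested and slide as a block kept it at 1. In MEKi against Vehicle it was 0, 1 (Klf7) with normexp, detection on every array or array weights, and 0 otherwise. With Y-linked signal in the fit the adjusted p of Klf7 was 0.200. Normexp moved the median log2 fold change of all genes in the first comparison to -0.13. The member counts are read against the called genes in all, which in the first comparison numbered 2369 of 19036. Of the same 19036 they numbered 4640 with normexp, 9334 unscaled, 3391 with array weights and 1883 with a Y-linked covariate. With detection on every array they were 2558 of 15792. They were 746 of 19465 on slide 1 alone and 25 of 19465 with spike-ins in range, and 1445 to 2886 with 1 array left out. For the second comparison they were 380 of 19230, and 59 to 1129 under the alternatives, among them 463 with normexp, 469 with detection on every array and 1129 with array weights. The count of member probes called in BRAFV600E against Cre control was 3, where 9.33% of all probes passed. It was 15 without scaling, where 9334 of 19036 genes passed, and 0 without a filter, where 1816 of 25043 genes did. With quantile normalization it was 2, both probes of Klf7, and no Klf10 probe was called. With 1 array left out it was 0 to 5. Shares over all probes were not computed for these alternatives, so these counts say nothing particular to the members. In MEKi against Vehicle the count was 0 throughout. These probe counts and the Klf4 profile without 1 array were chosen after seeing the data.

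Without scaling, the signs of Klf2 (0.34) and Klf9 (0.60) turned in BRAFV600E against Cre control. The median log2 fold change of all genes was 0.79 in that setting, and both genes lay below it. In the same comparison the signs of Klf6 (-0.27) and Klf16 (-0.18) turned with slide as a block and on slide 1 alone. That of Klf6 (-0.080) also turned on arrays with spike-ins in range. In MEKi against Vehicle the signs that turned were those of Klf16 without scaling (-0.018), with a Y-linked covariate (-0.20) and with 1 array left out (-0.11 to 0.094), of Klf5 with the mean of all probes (0.046) and of Klf9 with a Y-linked covariate (0.029). Klf10 stayed above 0 in BRAFV600E under all alternatives run, with adjusted p from 0.00549 to 0.411. The causes were not tested. All 10 members were well above background on every array by the probe that stood for them, and signal over background limits 1 further probe each of Klf7, Klf10 and Klf13, which were not well above it on every array.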
